A study of Homo sapiens with 18 samples.

Results

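The genes described here are 33 genes of the actin contractile apparatus and of focal adhesions that are commonly listed as targets of MRTF and SRF, together with SRF itself. They were taken by symbol from a list of names, with no measured value in the rule, out of 57773 Ensembl gene identifiers in the table. The list was chosen with earlier results of these data known. All 33 were in the table, 31 averaged 0.5 RPKM or more across all 18 libraries and were tested, and CNN1 and FHL1 lay below that level. RNA was sequenced from hTERT-RPE1 cells, an established human retinal pigment epithelial line immortalised with telomerase, grown in 10% serum. The 18 libraries form 6 groups of 3, made by flow sorting on a DNA stain: cells treated with cytochalasin D, cells treated with ZM447439 and untreated cells, each sorted into 4N and 2N populations. ZM447439 inhibits Aurora kinases, and the labels' protocol gives 2.5 µM for 24 h, with the same text on every library. No dose or time of cytochalasin D is given in the sources used here. The 4N sort holds diploid cells in G2 or mitosis as well as tetraploid cells, and the series concerns cells made polyploid by failed cytokinesis or by Aurora inhibition. The 3 libraries of a group are called biological replicates in the design text, all come from a single line, and p-values measure the spread between these libraries.

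Serum response factor (SRF) is a transcription factor that binds the CArG box, a short AT-rich element flanked by cytosine and guanine pairs. Its cofactors MRTF-A and MRTF-B bind actin monomers through RPEL motifs; when monomers are used up by filament assembly, the cofactors enter the nucleus and act with SRF on genes of the cytoskeleton, several of which encode the proteins that build and anchor stress fibres. Cytochalasin D caps filament ends and also binds monomers, and is known from many cell types to release MRTF from actin. Most members encode proteins of stress fibres, the contractile bundles of adherent cells, and of the focal adhesions where those bundles reach integrins.

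CArG boxes were looked for in the 250 bases before each annotated start, on both strands, in promoter windows from RefSeq (GRCh38.p14), which held 30 of the 33 members. At least 1 box was found in 8 of the 30 matched members (26.7%), against 103 of 6704 tested genes with a window (1.54%). FHL1, which is among the 8, was not tested. The 30 members had 65 windows and the 6704 genes 9312. Of the lists described below, a box was found in 4 of 5 actins (80%) and 4 of 28 other adhesion genes (14.3%). It was found in 2 of 11 genes of the list with the ternary complex factors (18.2%) and in 0 of 10 YAP-TEAD targets. The members were chosen as listed targets of MRTF and SRF, so a higher share than in other genes may come from that choice. The stretches are printed because the box is the element that SRF binds. The box is in capitals and each stretch is given 5′ to 3′ on the gene's strand. SRF has 2 boxes next to its own start, at chr6:43171219-43171268 (plus strand), and the other stretches lie at chr19:1026499-1026548 (CNN2, plus), chr19:16067345-16067394 (TPM4, plus), chrX:154374699-154374748 (FLNA, minus), chr14:68977708-68977757 (ACTN1, minus), chr2:105438585-105438634 (FHL2, minus) and chr16:31473134-31473183 (TGFB1I1, plus).
SRF: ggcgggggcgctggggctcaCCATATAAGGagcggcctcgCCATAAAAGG
CNN2: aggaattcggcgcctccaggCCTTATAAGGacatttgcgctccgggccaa
TPM4: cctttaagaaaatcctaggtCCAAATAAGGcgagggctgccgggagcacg
FLNA: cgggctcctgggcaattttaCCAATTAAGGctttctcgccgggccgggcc
ACTN1: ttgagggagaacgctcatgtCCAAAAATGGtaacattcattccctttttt
FHL2: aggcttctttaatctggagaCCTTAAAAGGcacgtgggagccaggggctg
TGFB1I1: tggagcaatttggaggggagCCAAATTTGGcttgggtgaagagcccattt
FHL1 also had a box, and FHL2 had another at a second annotated start. These matches are descriptions of letters in a window: they are no measurement of binding, and a member with no match in this window may hold the element elsewhere. The genes with a box did not share a direction in the comparisons below.

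The deposited values are RPKM in which reads were divided by the whole span of the gene with its introns, so levels were compared between genes only after dividing by exon length instead. On that scale, as CPM per kilobase of exon (reads scaled to library size, then to exon length; mean of 18 libraries), the filamin FLNA (495) and the non-muscle myosin heavy chain MYH9 (459) led, followed by TPM2 (269), ACTN4 (216), MYL9 (187) and TAGLN (133). At the other end of the tested members stood TNS1 (8.56), FERMT2 (9.78), PARVA (12.2) and MYH10 (13.9), while SRF itself was at 15.1. CNN1 (0.332) and FHL1 (0.589), which are prominent in muscle, were near the floor, with 16 to 90 and 90 to 443 reads in the 18 libraries. In RPKM over the span, CNN1 lay between 0.0258 and 0.133 and FHL1 between 0.0268 and 0.119; neither was tested. The 31 tested members had 714 to 425833 reads per library, and the implied library sizes were 51135642 to 78294394 reads.

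The kit did not mark strand, so reads of overlapping genes cannot be told apart. This touches 7 members that overlap another protein-coding gene, among them TAGLN (with PCSK7), MYH10 (with NDEL1), ZYX (with EPHA1) and ILK (with TAF10), and 6 members with named pseudogenes, most of all CNN2 with 11 and TPM3 with 8. Of the markers of the cells, 6 of 11 retinal pigment epithelium genes lay below 0.5 RPKM, RPE65 and RLBP1 among them. The other 5 were present: BEST1 (mean of 86.6 RPKM), OTX2 (3.12), PMEL (1.95), KRT8 and KRT18. BEST1 overlaps the coding gene FTH1, so its reads cannot be told apart from those of FTH1. Of the muscle markers 8 of 9 lay below 0.5 RPKM; the one above was SMTN, a smooth muscle and stress fibre protein. All 6 blood cell markers lay below that level. The level counts the whole span with introns, so a marker gene with long introns can lie below it although expressed. Values are relative to library size, and in these bulk samples fewer cells expressing a gene and less RNA per cell cannot be told apart.

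The members varied with the library as well as with the group. In each of the 4 drug-treated groups library number 1 stood apart from the other 2, and in both untreated groups number 3 did. Of the 31 members, 22 (71%) were higher in number 1 than in the mean of the other 2 in all 4 drug groups, against 2300 of 13037 genes tested (17.6%). The median excess of the members in number 1, on the log2(RPKM + 0.5) scale used for all differences, was 0.16 in cytochalasin D 4N, 0.35 in ZM447439 4N, 0.15 in cytochalasin D 2N and 0.14 in ZM447439 2N cells. In untreated number 3 the members were low instead, with medians of -0.14 in 4N and -0.12 in 2N cells. Only 3 members in 4N and 2 in 2N cells were higher there than in the other untreated libraries.

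TAGLN, which encodes transgelin, a calponin-family protein bound along actin filaments, carried this most. It had 100, 38.1 and 38.2 RPKM in cytochalasin D 4N, 140, 51.2 and 49.9 in ZM447439 4N and 159, 129 and 83.2 in untreated 4N cells (libraries 1, 2 and 3). In the 2N sort it had 116, 51.7 and 49.9 RPKM with cytochalasin D, 190, 91.3 and 102 with ZM447439, and 131, 116 and 80.9 in untreated cells. Number 1 was thus more than any other library of its group in all 6 groups. MYL9, the regulatory light chain of myosin II, had the same shape, with 86.7, 52.1 and 53.6 RPKM in cytochalasin D 4N, 71.7, 33.7 and 34.2 in ZM447439 4N and 68.8, 59.4 and 39.2 in untreated 4N cells. Its 2N libraries held 97.5, 70.7 and 72.9 RPKM with cytochalasin D, 93.2, 70.0 and 74.4 with ZM447439, and 58.8, 55.9 and 40.6 untreated.

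**Figure D1:**
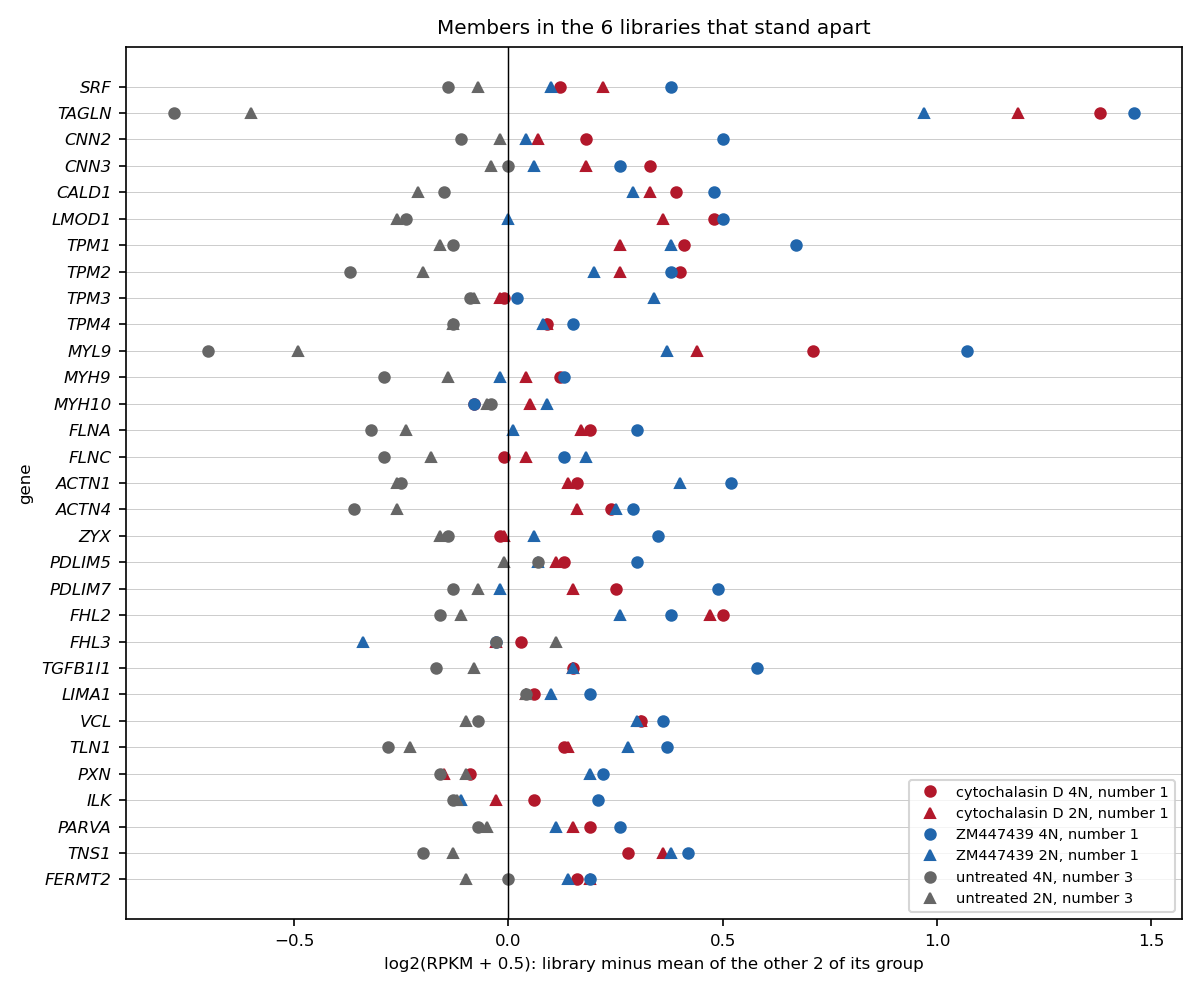
Each point is 1 member in 1 library, as log2(RPKM + 0.5) minus the mean of the other 2 libraries of its group (x axis), for number 1 of the 4 drug-treated groups and number 3 of both untreated groups. TAGLN lies farthest right in the 4 drug-treated libraries (0.97 to 1.46) and farthest left in both untreated ones (-0.78 and -0.60), and most members sit right of zero in the drug-treated libraries and left of it in the untreated ones.

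Other gene lists moved with these libraries too. All 11 tested YAP-TEAD targets were higher in number 1 in each of the 4 drug groups, with medians of 0.43 to 0.82. Whether density, serum or another property of the cultures differed is not in the labels, and its part in the results was not tested. All calls of members described below, in the 11 comparisons, remained in the same direction with adjusted p below 0.05 when the 6 libraries were left out together (an alternative added after the data were seen). More members then passed, and those counts are given beside each result. Each of the 6 was the most distant library of its group, so leaving them out narrows the spread within groups by construction. That calls were kept and more members passed is therefore no independent check.

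**Figure D2:**
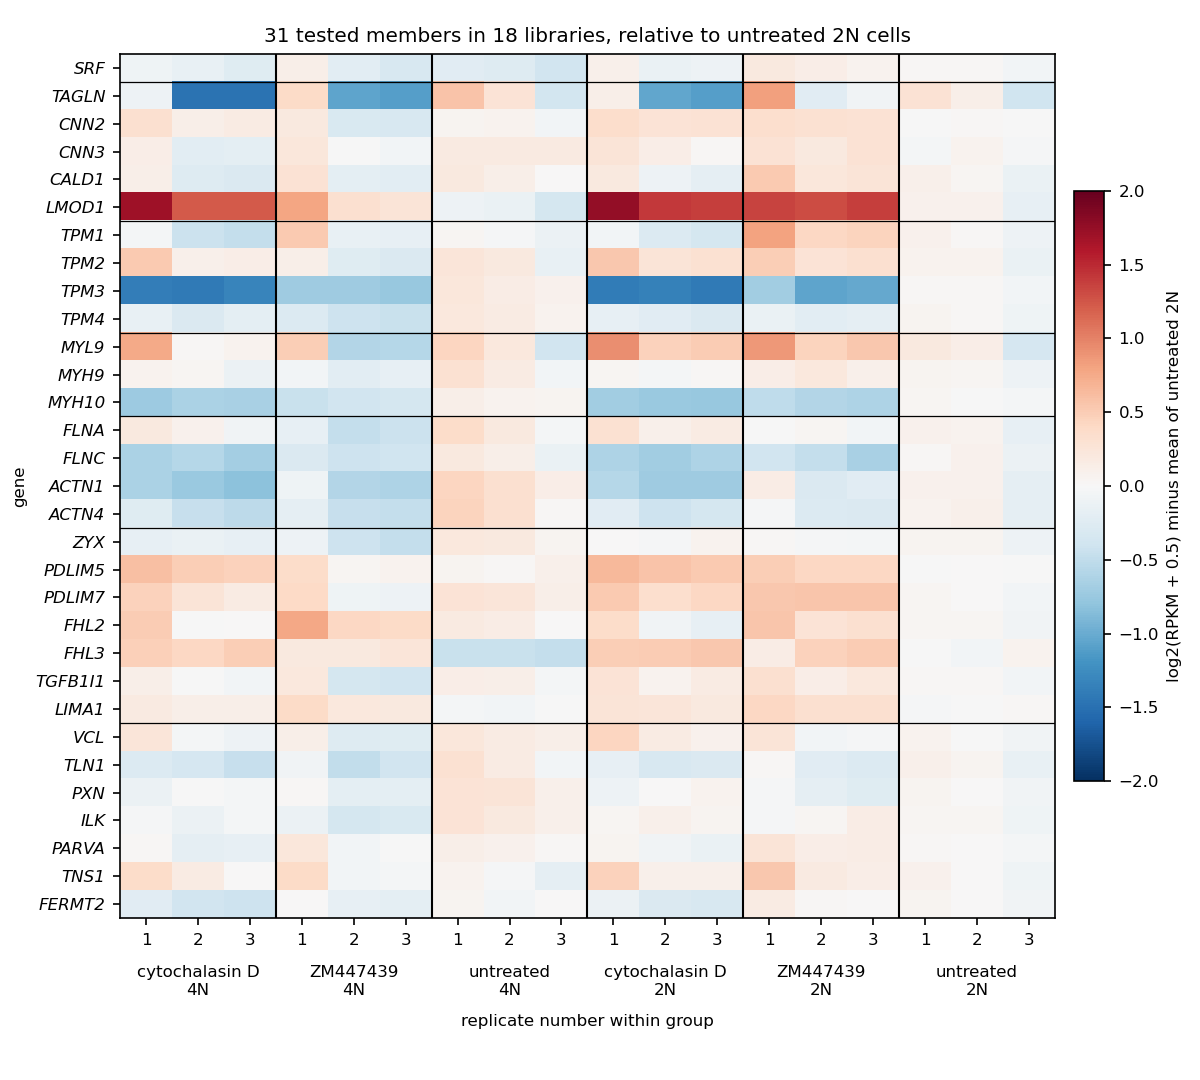
Colour shows log2(RPKM + 0.5) of each tested member (lines, grouped by role) in each of the 18 libraries (columns), minus the mean of the 3 untreated 2N libraries. LMOD1 is red and TPM3, MYH10 and FLNC are blue in the drug-treated libraries of both sorts, while TAGLN, MYL9, TPM1 and FHL2 are higher in number 1 than in the other 2 libraries of the same drug-treated group.

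Treatment was compared with no treatment within each sort, by limma with Benjamini-Hochberg adjustment over 13037 genes and a threshold of 0.05. The members did not move as a block. With cytochalasin D in 4N cells 4 of 31 members were higher and 14 lower, where 26.1% of all genes tested were higher and 44.4% lower. In 2N cells 7 were higher and 7 lower, against 27.1% and 39.5% of all genes. With ZM447439 in 4N cells 4 were higher and 12 lower, against 19.6% and 35.5% of all genes. In 2N cells 11 were higher and 4 lower, against 23.6% and 32.5% of all genes. The median member differed from untreated cells by -0.19 in cytochalasin D 4N, 0.02 in cytochalasin D 2N, -0.25 in ZM447439 4N and 0.18 in ZM447439 2N cells, beside medians over all genes of -0.13, -0.08, -0.07 and -0.04. Both drugs were set against the same untreated libraries, so their comparisons share controls.

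These splits depend on how libraries are scaled. The deposited scaling leaves the median gene below zero, and the part of that in the splits was not tested. Rescaled to a common median ratio, the numbers higher and lower were 6 and 8 for cytochalasin D 4N, 12 and 4 for cytochalasin D 2N, 4 and 11 for ZM447439 4N and 12 and 3 for ZM447439 2N. Quantile normalization gave 8 and 6, 13 and 5, 5 and 9, and 15 and 3 in that order. Rescaling shifts the values of all genes in a library, so such changes in the split are not particular to the members. The shares of all genes higher and lower in the rescaled fits are not given here. Without the 6 libraries that stood apart the counts were 5 and 23, 8 and 14, 4 and 24, and 14 and 9. In either direction that is 90.3%, 71%, 90.3% and 74.2% of members, beside 76.9%, 74.7%, 65.5% and 68.7% of all genes in the same fits; with all 18 libraries it was 58.1%, 45.2%, 51.6% and 48.4% of members, beside 70.5%, 66.6%, 55.2% and 56% of all genes. The rescalings called 66% to 69.1% of all genes with cytochalasin D and 52.5% to 56.5% with ZM447439. Members not called with all libraries that passed without the 6, beyond those described with their genes below, were CNN2 (0.08), MYH9 (-0.28) and FHL2 (-0.16) in cytochalasin D 4N, SRF (-0.14), PARVA (-0.12) and FHL2 (-0.15) in cytochalasin D 2N, and CNN2 (-0.37), CNN3 (-0.21), PARVA (-0.13) and FERMT2 (-0.18) in ZM447439 4N cells. The same holds for TLN1 in both 2N comparisons (-0.38 with cytochalasin D and -0.33 with ZM447439), and for ACTN1 (-0.35), ACTN4 (-0.37) and PXN (-0.24) in ZM447439 2N cells.

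**Figure D3:**
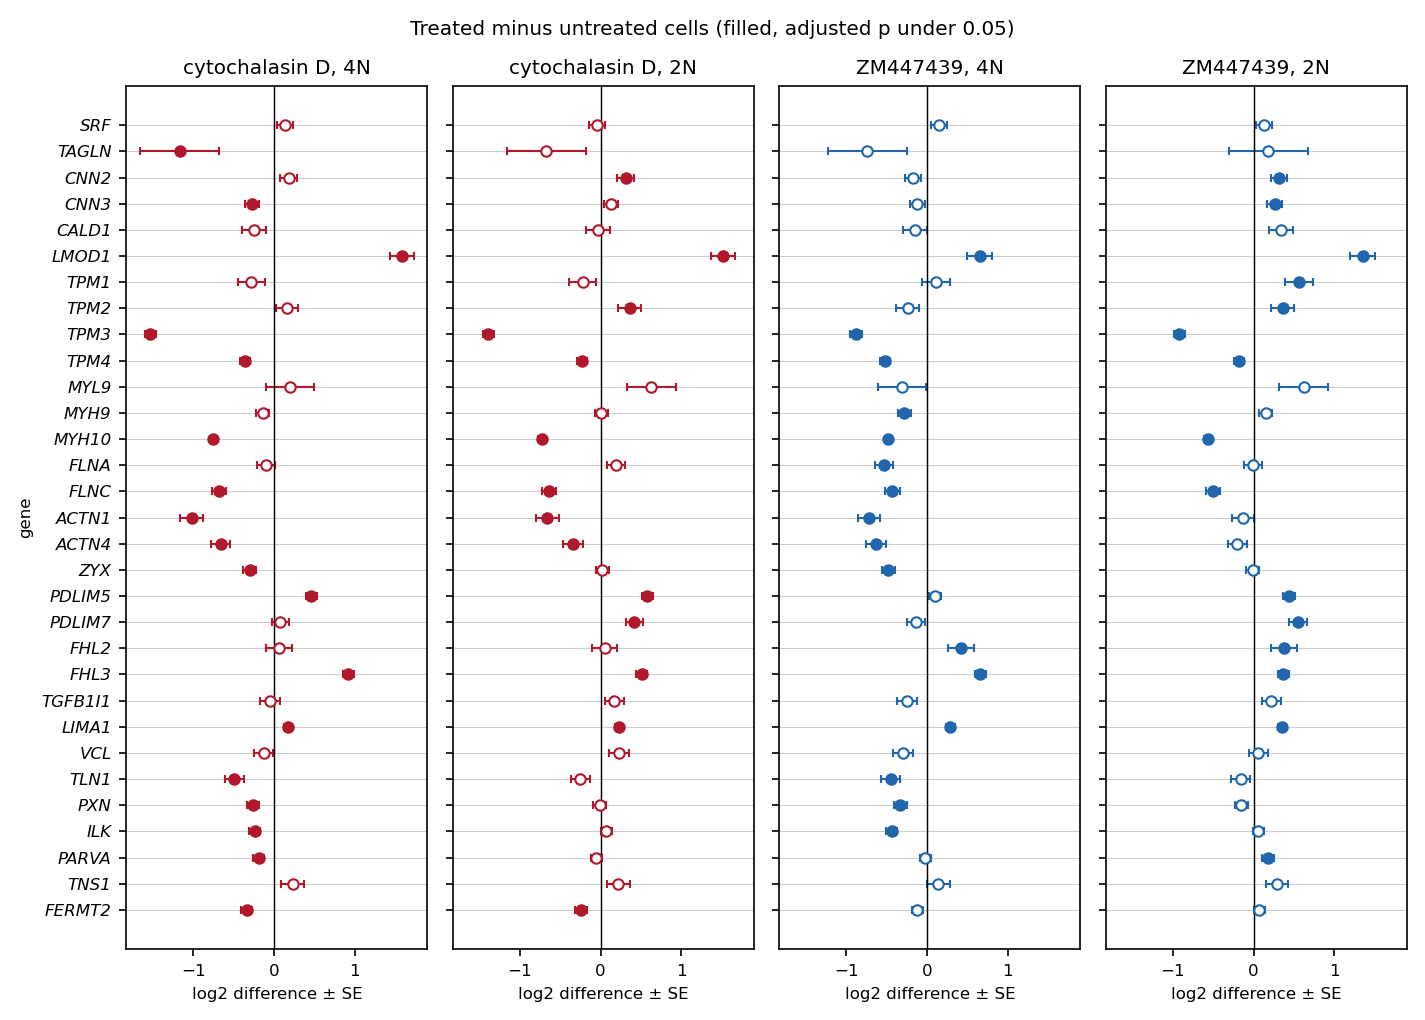
The log2 difference from untreated cells of the same sort (x axis, ± SE from limma, n = 3 libraries a group) is drawn for the 31 tested members in 4 panels; filled points have adjusted p below 0.05 over all genes. LMOD1 lies at 1.58, 1.52, 0.65 and 1.35 and TPM3 at -1.53, -1.39, -0.88 and -0.92 from left to right, and most other members lie within 1 unit of zero.

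SRF differed little between drug-treated and untreated cells. It had 6.18, 5.88 and 5.45 RPKM in cytochalasin D 4N, 7.13, 5.60 and 5.14 in ZM447439 4N and 5.52, 5.37 and 4.90 in untreated 4N cells, groups that overlap. Its differences were 0.14 ± 0.10 (cytochalasin D 4N, adjusted p = 0.212) and 0.15 ± 0.10 (ZM447439 4N, adjusted p = 0.19), and in 2N cells -0.04 and 0.13. Under the median ratio scaling the cytochalasin D 4N value was 0.29 and passed (adjusted p = 0.0195), as it did under quantile normalization (0.36, adjusted p = 0.00349); quantile normalization also gave a passing 0.31 for ZM447439 4N (adjusted p = 0.0122).

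Among the calponins, TAGLN, CALD1 and LMOD1, grouped here as actin-binding proteins, LMOD1 had the largest rise. It reached the filter of 0.5 RPKM through the drug-treated groups (means of 0.83 to 2.27 RPKM, against 0.338 and 0.462 in untreated 4N and 2N cells), so a member at this untreated level could be tested only where it was higher elsewhere. Without a filter its differences also passed (adjusted p 2.28e-06 to 0.00746). It encodes leiomodin 1, which nucleates actin filaments and is best known from smooth muscle. It had 2.62, 1.74 and 1.74 RPKM in cytochalasin D 4N, 1.15, 0.692 and 0.647 in ZM447439 4N and 0.391, 0.373 and 0.249 in untreated 4N cells. Every drug-treated 4N library was above every untreated one. In the 2N sort it had 2.75, 2.05 and 2.00 RPKM with cytochalasin D and 1.95, 1.88 and 2.01 with ZM447439, against 0.520, 0.514 and 0.352 untreated, and the groups did not overlap either. The ratio of mean RPKM was 6.03 in cytochalasin D 4N, 4.91 in cytochalasin D 2N, 2.46 in ZM447439 4N and 4.21 in ZM447439 2N cells. On the log2(RPKM + 0.5) scale, which understates changes at such low levels, the differences were 1.58 ± 0.15 (adjusted p = 3.74e-07), 1.52 ± 0.15 (6.9e-07), 0.65 ± 0.15 (0.00252) and 1.35 ± 0.15 (4.59e-06). The ZM447439 4N value was 0.41 without the 6 libraries (adjusted p = 1.72e-05), and 1.25 when CPM, with no division by length, replaced RPKM.

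The other members of this role moved less. CNN2, a calponin of non-muscle cells, rose in 2N cells under both drugs (cytochalasin D 0.31 ± 0.10, adjusted p = 0.0164; ZM447439 0.31 ± 0.10, adjusted p = 0.0189). It had 40.2, 37.8 and 38.6 RPKM with cytochalasin D and 39.6, 38.7 and 38.5 with ZM447439, against 31, 32 and 31 in untreated 2N cells. In 4N cells its differences were 0.18 with cytochalasin D and -0.17 with ZM447439, which did not pass; the first passed at 0.34 (median ratio) and 0.45 (quantile) after rescaling. CNN3, another calponin, fell in cytochalasin D 4N (-0.27 ± 0.09, adjusted p = 0.0167) and rose in ZM447439 2N cells (0.26 ± 0.09, adjusted p = 0.0269). The fall was lost under the median ratio scaling and turned to 0.03 under quantile normalization. Leaving out cytochalasin D 4N number 2 or 3 ended the fall, and ZM447439 2N number 1 or 3 or untreated 2N number 1 or 3 ended the rise (adjusted p 0.0677 to 0.0775 over both).

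TAGLN fell in cytochalasin D 4N cells by 1.17 ± 0.49 on the log2 scale (adjusted p = 0.0443), and the groups overlapped. That call was lost under both rescalings (adjusted p = 0.0828 and 0.0763) and without cytochalasin D 4N number 2 or 3, untreated 4N number 1 or 2, untreated 2N number 1 or 2, or ZM447439 2N number 3 (adjusted p 0.0511 to 0.148). With those 6 libraries left out TAGLN was lower in all 4 comparisons, by -1.89 in cytochalasin D 4N, -1.27 in cytochalasin D 2N, -1.49 in ZM447439 4N and -0.35 in ZM447439 2N cells (adjusted p = 6.06e-07, 7.59e-06, 5.12e-06 and 0.0154). With all 18 libraries the last of these was 0.18. CALD1, encoding caldesmon, which holds back actomyosin, ranged from -0.25 to 0.34 over the 4 comparisons and passed in none; in ZM447439 2N cells it passed under both rescalings (0.39 and 0.41, adjusted p = 0.0377 and 0.0294). It passed in all 4 without the 6 libraries, at -0.43 in cytochalasin D 4N, -0.21 in cytochalasin D 2N, -0.36 in ZM447439 4N and 0.18 in ZM447439 2N cells.

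The 4 tropomyosins, coiled-coil proteins that wind along the filament and set which other proteins reach it, moved in different directions. TPM3 had the largest fall of the members with all 18 libraries; without the 6 libraries TAGLN fell more in both 4N comparisons (-1.89 against -1.56 with cytochalasin D and -1.49 against -0.91 with ZM447439). It had 4.51, 4.38 and 4.72 RPKM in cytochalasin D 4N, 7.49, 7.50 and 7.24 in ZM447439 4N and 14.7, 14.0 and 13.4 in untreated 4N cells. In 2N cells the values were 4.43, 4.63 and 4.39 with cytochalasin D and 7.57, 5.79 and 5.92 with ZM447439, against 12.8, 12.8 and 12 untreated. The untreated libraries lay above all drug-treated ones in both sorts. The differences were -1.53 ± 0.07 (adjusted p = 2.41e-10) and -1.39 ± 0.07 (1.11e-09) with cytochalasin D in 4N and 2N cells, and -0.88 ± 0.07 (2.36e-07) and -0.92 ± 0.07 (1.8e-07) with ZM447439.

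TPM4 fell less, by -0.36 ± 0.06 in cytochalasin D 4N (adjusted p = 9.04e-05), -0.23 ± 0.06 in cytochalasin D 2N (0.00404), -0.52 ± 0.06 in ZM447439 4N (5.63e-06) and -0.18 ± 0.06 in ZM447439 2N cells (0.0225). The ZM447439 4N libraries held 27.9, 25.3 and 24.8 RPKM of it, against 39.0, 38.1 and 35.3 in untreated 4N cells. Both 2N calls were lost under either rescaling (-0.07 to -0.12), and the cytochalasin D 4N value was -0.20 (median ratio) and -0.09 (quantile, adjusted p = 0.146). The ZM447439 2N call was also lost without ZM447439 2N number 2 or 3 or untreated 2N number 1 or 2 (adjusted p 0.0581 to 0.0901).

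TPM1 and TPM2 rose in the comparisons where they passed with all 18 libraries. TPM1 rose in ZM447439 2N cells, with 75.7, 57.2 and 58.7 RPKM against 45.4, 43.8 and 39.8 in untreated 2N cells (0.56 ± 0.17, adjusted p = 0.0125). It did not pass without ZM447439 2N number 1 (adjusted p = 0.0578), although it was 0.37 and passed without all 6 libraries. With cytochalasin D it was at 41.5, 35.3 and 33.7 RPKM in 2N cells, a difference of -0.22. TPM2 rose in 2N cells with cytochalasin D (0.36 ± 0.14, adjusted p = 0.0345) and with ZM447439 (0.36 ± 0.14, adjusted p = 0.0395). The values were 124, 102 and 106 RPKM with cytochalasin D and 121, 103 and 107 with ZM447439, against 89.9, 89.3 and 77.8 untreated. Leaving out cytochalasin D 2N number 1 or 3 or untreated 2N number 3 ended the first call, and ZM447439 2N number 1 or 3 or any untreated 2N library the second (adjusted p 0.0505 to 0.133 over both). Without the 6 libraries the values were 0.21 and 0.23. In cytochalasin D 4N cells it passed under quantile normalization (0.39, adjusted p = 0.0117) and, in the other direction, without the 6 libraries (-0.10, adjusted p = 0.0347). TPM2 was then also lower in ZM447439 4N cells (-0.49, adjusted p = 7.54e-06), and TPM1 was lower in cytochalasin D 4N (-0.45, 8.07e-06), cytochalasin D 2N (-0.37, 3.42e-05) and ZM447439 4N cells (-0.16, 0.00546).

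The myosin II genes split by heavy chain. MYH10, the heavy chain of non-muscle myosin IIB, fell in every comparison with untreated cells. It had 0.499, 0.567 and 0.550 RPKM in cytochalasin D 4N, 0.711, 0.761 and 0.797 in ZM447439 4N and 1.29, 1.24 and 1.22 in untreated 4N cells. In 2N cells it had 0.519, 0.491 and 0.477 with cytochalasin D, 0.660, 0.6 and 0.578 with ZM447439 and 1.2, 1.14 and 1.11 untreated. Untreated values were above all others, and ratios of mean RPKM to untreated cells were 0.43 (cytochalasin D 4N), 0.431 (cytochalasin D 2N), 0.604 (ZM447439 4N) and 0.532 (ZM447439 2N). The log2 differences were -0.75 ± 0.04, -0.73 ± 0.04, -0.48 ± 0.04 and -0.57 ± 0.04, with adjusted p of 7.16e-10, 1.62e-09, 2.43e-07 and 6.72e-08. In CPM, where the pseudocount weighs less, they were -1.21, -1.21, -0.73 and -0.91.

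MYH9, the heavy chain of myosin IIA and the more abundant of the pair per exon length, passed only in ZM447439 4N cells, where it had 36.6, 32.8 and 33.8 RPKM against 47.1, 42.5 and 36.5 untreated (-0.28 ± 0.08, adjusted p = 0.0104). Those groups overlapped, and the call was lost without untreated 4N number 1 (adjusted p = 0.0616), and under the median ratio (-0.19, adjusted p = 0.0867) and quantile (-0.08, adjusted p = 0.416) scalings. MYL9 passed in none of the 4, at 0.20, 0.63, -0.31 and 0.62 (SE 0.30 each) in cytochalasin D 4N, cytochalasin D 2N, ZM447439 4N and ZM447439 2N cells. Under both rescalings it passed in cytochalasin D 2N cells (0.74 and 0.77, adjusted p = 0.0423 and 0.0197), and under quantile normalization also in ZM447439 2N cells (0.68, adjusted p = 0.0416). With those 6 libraries left out it was -0.27 in cytochalasin D 4N, 0.32 in cytochalasin D 2N, -0.90 in ZM447439 4N and 0.33 in ZM447439 2N cells, all past the threshold.

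**Figure D4:**
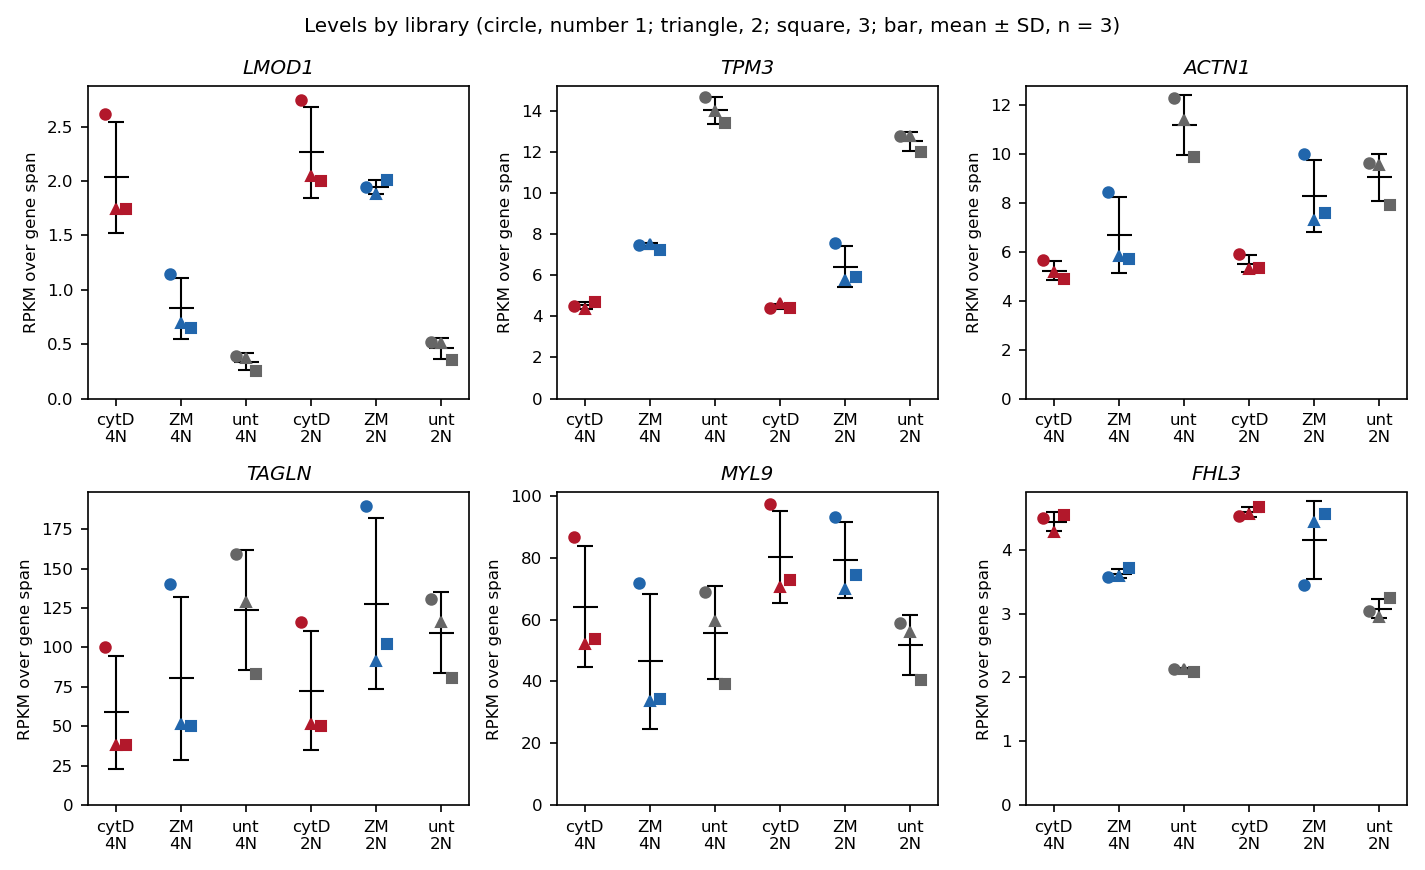
RPKM over the gene span (y axis) of 6 members in each library, with the mean ± SD of the 3 libraries of a group (groups on the x axis; cytD, cytochalasin D; ZM, ZM447439; unt, untreated). LMOD1 and TPM3 separate drug-treated from untreated libraries completely, at 0.647 to 2.75 against 0.249 to 0.520 and at 4.38 to 7.57 against 12 to 14.7 RPKM, whereas TAGLN and MYL9 spread widely within groups. LMOD1 passed the filter on low values through the drug-treated libraries.

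Of the actin crosslinkers, the alpha-actinins fell with cytochalasin D. ACTN1 had 5.66, 5.16 and 4.88 RPKM in cytochalasin D 4N, 8.47, 5.85 and 5.71 in ZM447439 4N and 12.3, 11.4 and 9.89 in untreated 4N cells. All untreated 4N libraries were higher than the drug-treated ones. Its differences were -1.02 ± 0.14 with cytochalasin D (adjusted p = 1.46e-05) and -0.72 ± 0.14 with ZM447439 (0.000641). In 2N cells it had 5.93, 5.31 and 5.33 RPKM with cytochalasin D and 10.0, 7.30 and 7.60 with ZM447439, against 9.64, 9.57 and 7.94 untreated. It fell there with cytochalasin D (-0.66 ± 0.14, adjusted p = 0.000865) and was -0.13 ± 0.14 with ZM447439, which did not pass. ACTN4 fell in 4N cells with cytochalasin D (-0.66 ± 0.12, adjusted p = 0.000199) and ZM447439 (-0.63 ± 0.12, adjusted p = 0.000553). Its 4N levels were 14.6, 12.6 and 12 RPKM with cytochalasin D and 15.4, 12.6 and 12.4 with ZM447439, below the 23.8, 21.9 and 17.7 of untreated cells. Under quantile normalization these were -0.37 and -0.40 and passed. A smaller fall in cytochalasin D 2N cells (-0.34 ± 0.12, adjusted p = 0.0248) was lost under both rescalings and without number 2 or 3 of cytochalasin D 2N or number 1 or 2 of untreated 2N (adjusted p 0.0588 to 0.0887).

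The filamins, large crosslinkers that also tether integrins, differed from each other. FLNC fell in all 4 comparisons, with 17.9, 18.8 and 17.4 RPKM in cytochalasin D 4N and 23.0, 20.9 and 21.2 in ZM447439 4N, against 32.2, 30.5 and 25.5 in untreated 4N cells. In 2N cells it had 18.2, 17.1 and 18.2 with cytochalasin D and 21.5, 20.1 and 17.8 with ZM447439, against 28.7, 29.8 and 25.9 untreated, so no drug-treated library reached an untreated one. The differences were -0.68 ± 0.09 and -0.64 ± 0.09 with cytochalasin D (4N and 2N, adjusted p = 4.97e-06 and 1.1e-05) and -0.43 ± 0.09 and -0.50 ± 0.09 with ZM447439 (0.000732 and 0.000189). Quantile normalization left -0.39 in cytochalasin D 4N and -0.23 in ZM447439 4N, both past the threshold. FLNA, the most abundant member per exon length, fell in ZM447439 4N cells, where it had 176, 141 and 145 RPKM against 253, 224 and 191 in untreated 4N cells (-0.53 ± 0.11, adjusted p = 0.00103). Its other 3 differences lay between -0.10 and 0.19 and did not pass. After median ratio scaling it passed in cytochalasin D 2N (0.29, adjusted p = 0.0372), and without the 6 libraries it was lower and passed in cytochalasin D 4N cells (-0.27, adjusted p = 0.00734).

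The LIM-domain proteins, scaffolds of the actin cytoskeleton and adhesions that include several shuttling to the nucleus counted 7 tested members. Of these, 3 were higher and 1 lower in cytochalasin D 4N, 4 and 0 in cytochalasin D 2N, 3 and 1 in ZM447439 4N and 5 and 0 in ZM447439 2N cells. Shares of all genes higher and lower were 26.1% and 44.4%, 27.1% and 39.5%, 19.6% and 35.5%, and 23.6% and 32.5%. Paxillin (PXN), a relative of TGFB1I1, was counted with the integrin linkers below instead. FHL3, a LIM-only protein, had 4.50, 4.28 and 4.55 RPKM in cytochalasin D 4N, 3.58, 3.59 and 3.72 in ZM447439 4N and 2.14, 2.13 and 2.08 in untreated 4N cells. Its 2N values were 4.53, 4.57 and 4.68 with cytochalasin D and 3.45, 4.44 and 4.57 with ZM447439, against 3.04, 2.95 and 3.25 untreated. Each drug group was above untreated cells with no overlap, by 0.92 ± 0.07 and 0.51 ± 0.07 with cytochalasin D in 4N and 2N cells (adjusted p = 3.39e-08 and 1.88e-05) and by 0.66 ± 0.07 and 0.37 ± 0.07 with ZM447439 (2.82e-06 and 0.000499). ZM447439 2N number 1, at 3.45 RPKM, was the closest to the untreated level.

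LIMA1, or EPLIN, which bundles and stabilises filaments, rose a little everywhere, by 0.17 ± 0.05 and 0.23 ± 0.05 with cytochalasin D (4N and 2N, adjusted p = 0.00502 and 0.000572) and by 0.29 ± 0.05 and 0.35 ± 0.05 with ZM447439 (0.000125 and 2.33e-05). It held 0.826 to 0.961 RPKM with cytochalasin D and 0.894 to 1.13 with ZM447439, against 0.677 to 0.742 in untreated cells. In CPM the 4 values were 0.28, 0.38, 0.47 and 0.55. PDLIM5, a PDZ and LIM scaffold of the Enigma family, rose with cytochalasin D in 4N cells (1.45, 1.30 and 1.26 RPKM against 0.824, 0.800 and 0.878; 0.46 ± 0.07, adjusted p = 3.36e-05). It rose in 2N cells with cytochalasin D (1.51, 1.40 and 1.33 RPKM) and with ZM447439 (1.29, 1.2 and 1.21), against 0.775, 0.788 and 0.775 untreated (0.58 ± 0.07 and 0.44 ± 0.07, adjusted p = 4e-06 and 9.98e-05). In ZM447439 4N cells it was at 0.10 ± 0.07, which did not pass, with number 1 alone at 1.15 RPKM and the others at 0.820 and 0.847.

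PDLIM7, or Enigma, rose in the 2N sort under both drugs, with 26.9, 23.6 and 25.1 RPKM with cytochalasin D and 27.2, 27.5 and 27.7 with ZM447439, against 19.2, 18.7 and 18.0 untreated (0.42 ± 0.11 and 0.55 ± 0.11, adjusted p = 0.00366 and 0.00072). In 4N cells it was at 0.08 and -0.14 and did not pass. With cytochalasin D it passed under quantile normalization (0.39, adjusted p = 0.00443), and with ZM447439 it was lower and passed without the 6 libraries (-0.35, adjusted p = 0.000121). FHL2 rose with ZM447439, with 5.58, 4.23 and 4.10 RPKM against 3.50, 3.42 and 3.05 in 4N cells (0.42 ± 0.16, adjusted p = 0.0348) and 4.72, 3.78 and 3.92 against 3.13, 3.13 and 2.87 in 2N cells (0.38 ± 0.16, adjusted p = 0.049). The 4N call was lost without ZM447439 4N number 1 or any untreated 4N library (adjusted p 0.0528 to 0.154) and was 0.24 without the 6 libraries. The 2N call held in 5 of the 18 fits that left out 1 library, those without cytochalasin D 4N number 1 or 2, cytochalasin D 2N number 1 or 3 or ZM447439 4N number 1. With cytochalasin D FHL2 was at 0.06 and 0.05, and without the 6 libraries at -0.16 and -0.15 (adjusted p = 0.00427 and 0.00733).

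ZYX, encoding zyxin, which comes to strained stress fibres and adhesions and brings Ena/VASP proteins, fell in 4N cells. It had 37.7, 38.8 and 37.9 RPKM with cytochalasin D and 39.6, 31.8 and 30.4 with ZM447439, against 49.1, 48.5 and 44.2 untreated (-0.30 ± 0.08 and -0.48 ± 0.08, adjusted p = 0.00364 and 0.000161). In 2N cells it was at 0.02 and -0.01, which did not pass (0.20 with cytochalasin D under quantile normalization, adjusted p = 0.0365). The cytochalasin D call was lost under both rescalings (-0.14 and -0.01), and the ZM447439 call passed at -0.29 under quantile normalization. TGFB1I1, or Hic-5, a relative of paxillin, ranged from -0.25 to 0.22 and passed in none of the 4, although it did in 2N cells under quantile normalization (0.34 with cytochalasin D and 0.33 with ZM447439). It was lower and passed, without the 6 libraries, in ZM447439 4N (-0.50, adjusted p = 1.24e-05) and cytochalasin D 4N cells (-0.15, 0.00705), and higher in ZM447439 2N cells (0.14, 0.0113).

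Of the 7 proteins that link integrins to actin, 5 were lower and 0 higher in cytochalasin D 4N, 1 and 0 in cytochalasin D 2N, and 3 and 0 in ZM447439 4N, while 0 were lower and 1 higher in ZM447439 2N cells. The shares of all genes that were lower were 44.4%, 39.5%, 35.5% and 32.5% in the same order. The difference between sorts differed by the interaction test in 0 of them for cytochalasin D and in 1, ILK, for ZM447439. TLN1, encoding talin, which binds integrin tails and activates them, had 27.3, 26.0 and 23.7 RPKM with cytochalasin D and 31.5, 23.3 and 25.1 with ZM447439, against 40.7, 36.9 and 31.9 untreated. These 4N differences were -0.49 ± 0.12 and -0.45 ± 0.12 (adjusted p = 0.00194 and 0.00533), and both were lost under quantile normalization (adjusted p = 0.0911 and 0.0559). PXN, the adaptor paxillin, fell by 0.26 ± 0.08 and 0.33 ± 0.08 on the log2 scale in 4N cells with cytochalasin D and ZM447439 (adjusted p = 0.00654 and 0.00219). The cytochalasin D call was lost under both rescalings and the ZM447439 call under quantile normalization (adjusted p = 0.0791).

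ILK, a pseudokinase that ties integrins to parvin and PINCH, had 22.2, 20.7 and 21.9 RPKM in cytochalasin D 4N, 20.6, 17.5 and 18.0 in ZM447439 4N and 27.2, 25.7 and 24.1 in untreated 4N cells. The untreated libraries were all above the others. Its fall was -0.44 ± 0.07 with ZM447439 (adjusted p = 5.32e-05; -0.23 under quantile normalization, which passed) and -0.24 ± 0.07 with cytochalasin D (adjusted p = 0.00469). The second was -0.08 after median ratio scaling and turned to 0.07 under quantile normalization. PARVA, its parvin partner, fell in cytochalasin D 4N (-0.19 ± 0.07, adjusted p = 0.0351) and rose in ZM447439 2N cells (0.18 ± 0.07, adjusted p = 0.0493). The fall was lost under both rescalings and without cytochalasin D 4N number 2 or 3 or untreated 4N number 1 or 2 (adjusted p 0.0714 to 0.128). The rise held in 4 of the 18 fits that left out 1 library, those without cytochalasin D 4N number 1, ZM447439 4N number 1 or 2 or cytochalasin D 2N number 1.

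FERMT2, encoding kindlin-2, which activates integrins with talin, fell with cytochalasin D in both sorts. It had 0.753, 0.629 and 0.607 RPKM against 1.02, 0.921 and 0.970 in 4N cells (-0.34 ± 0.07, adjusted p = 0.000612). In 2N cells it had 0.857, 0.708 and 0.674 against 1.03, 0.978 and 0.904 (-0.24 ± 0.07, adjusted p = 0.0082; adjusted p = 0.0545 after median ratio scaling). With ZM447439 it was at -0.12 and 0.07. VCL, encoding vinculin, which couples talin to actin under load, and TNS1, a tensin, passed in none of the 4 comparisons. VCL had differences from -0.30 to 0.23, and in cytochalasin D 2N cells it passed under both rescalings (0.33 and 0.39). VCL was, without the 6 libraries, lower and passed in cytochalasin D 4N (-0.26, adjusted p = 0.00053) and ZM447439 4N cells (-0.45, 3.35e-05). TNS1 lay between 0.14 and 0.29.

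The 4N and 2N sorts were compared within each treatment, in a main fit that held no block for replicate number. In untreated cells no member was higher and 2 were lower in 4N cells, where 12.9% of all genes tested were higher and 4.55% lower. FHL3 had 2.14, 2.13 and 2.08 RPKM in 4N cells against 3.04, 2.95 and 3.25 in 2N cells, without overlap (-0.45 ± 0.07, adjusted p = 0.000496). SRF had 5.52, 5.37 and 4.90 against 6.66, 6.69 and 6.32 RPKM, again without overlap (-0.29 ± 0.10, adjusted p = 0.0481). The SRF call held in 4 of the 18 fits that left out 1 library, those without ZM447439 4N number 1 or 3, cytochalasin D 2N number 1 or ZM447439 2N number 1 (adjusted p up to 0.166 in the others). With treatment and replicate number as a block, 5 members were also higher in 4N cells: ACTN1 (0.29, adjusted p = 0.00146), ACTN4 (0.26), PXN (0.21), VCL (0.17) and TPM4 (0.15). The labels do not say whether 4N and 2N libraries of the same number came from the same culture. The blocked fit called 26.1% of all genes. Without the 6 libraries 12 were higher and 3 lower (30% of all genes called), and the median member was at 0.11 with all libraries, beside 0.04 over all genes.

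With cytochalasin D 0 members passed, 0 higher and 0 lower, beside 0% of all genes tested in either direction by limma; 1 member and 682 of the genes had an unadjusted p below 0.05. The block left 0 as well, and 5 of 31 differences were above zero, beside 6073 of the 13037 genes tested. The members had a median of -0.10 and a range of -0.35 (MYL9) to 0.12 (FHL2). With those 6 libraries left out 7 members were lower in 4N cells: MYL9 (-0.44, adjusted p = 0.00799), CNN3 (-0.28), VCL (-0.19), ZYX (-0.17), LMOD1 (-0.17), TPM2 (-0.15) and CNN2 (-0.14); 7.22% of all genes were called in that fit.

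With ZM447439 1 member was higher and 7 lower in 4N cells, against 5.21% and 2.45% of all genes tested. LMOD1 had 1.15, 0.692 and 0.647 RPKM in 4N cells against 1.95, 1.88 and 2.01 in 2N cells, with no overlap (-0.90 ± 0.15, adjusted p = 0.00464). PDLIM7 had 24.7, 17.5 and 17.3 against 27.2, 27.5 and 27.7 (-0.48 ± 0.11, adjusted p = 0.021), and CNN2 had 35.9, 25.3 and 25.0 against 39.6, 38.7 and 38.5 (-0.45 ± 0.10, adjusted p = 0.0196). In both genes the 4N libraries 2 and 3 were far below and number 1 came close to 2N cells. TPM2 (-0.51 ± 0.14, adjusted p = 0.0438), ZYX (-0.32 ± 0.08, 0.0294), ILK (-0.32 ± 0.07, 0.0127) and PDLIM5 (-0.28 ± 0.07, 0.0299) were lower too. MYH10 was the member that was higher, with 0.711, 0.761 and 0.797 RPKM in 4N cells against 0.660, 0.6 and 0.578 in 2N cells (0.18 ± 0.04, adjusted p = 0.021).

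How many passed depended on the fit. With treatment and replicate number as a block 1 was higher and 21 were lower, the additional ones led by MYL9 (-0.84, adjusted p = 0.0113), TAGLN (-0.77, 0.0077) and TPM1 (-0.48, 0.00694). Without both ZM447439 libraries of number 1 the counts were 2 and 18, and without the 6 libraries 2 and 26. All genes called in these 3 fits were 15.5%, 21.2% and 40.3%. Without ZM447439 4N number 1 alone 1 member was higher and 18 were lower. The share of all genes called is not given for this fit or for the other fits leaving out 1 library. A change in these counts may therefore be a general change in calls. LMOD1 was the only member that passed in all 18 fits leaving out 1 library, and the count fell to 1 without number 2 or 3 of either ZM447439 sort; TPM2 passed in 6 of the 18. With only the 6 libraries compared in the fit, 0 of 13037 genes passed.

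**Figure D5:**
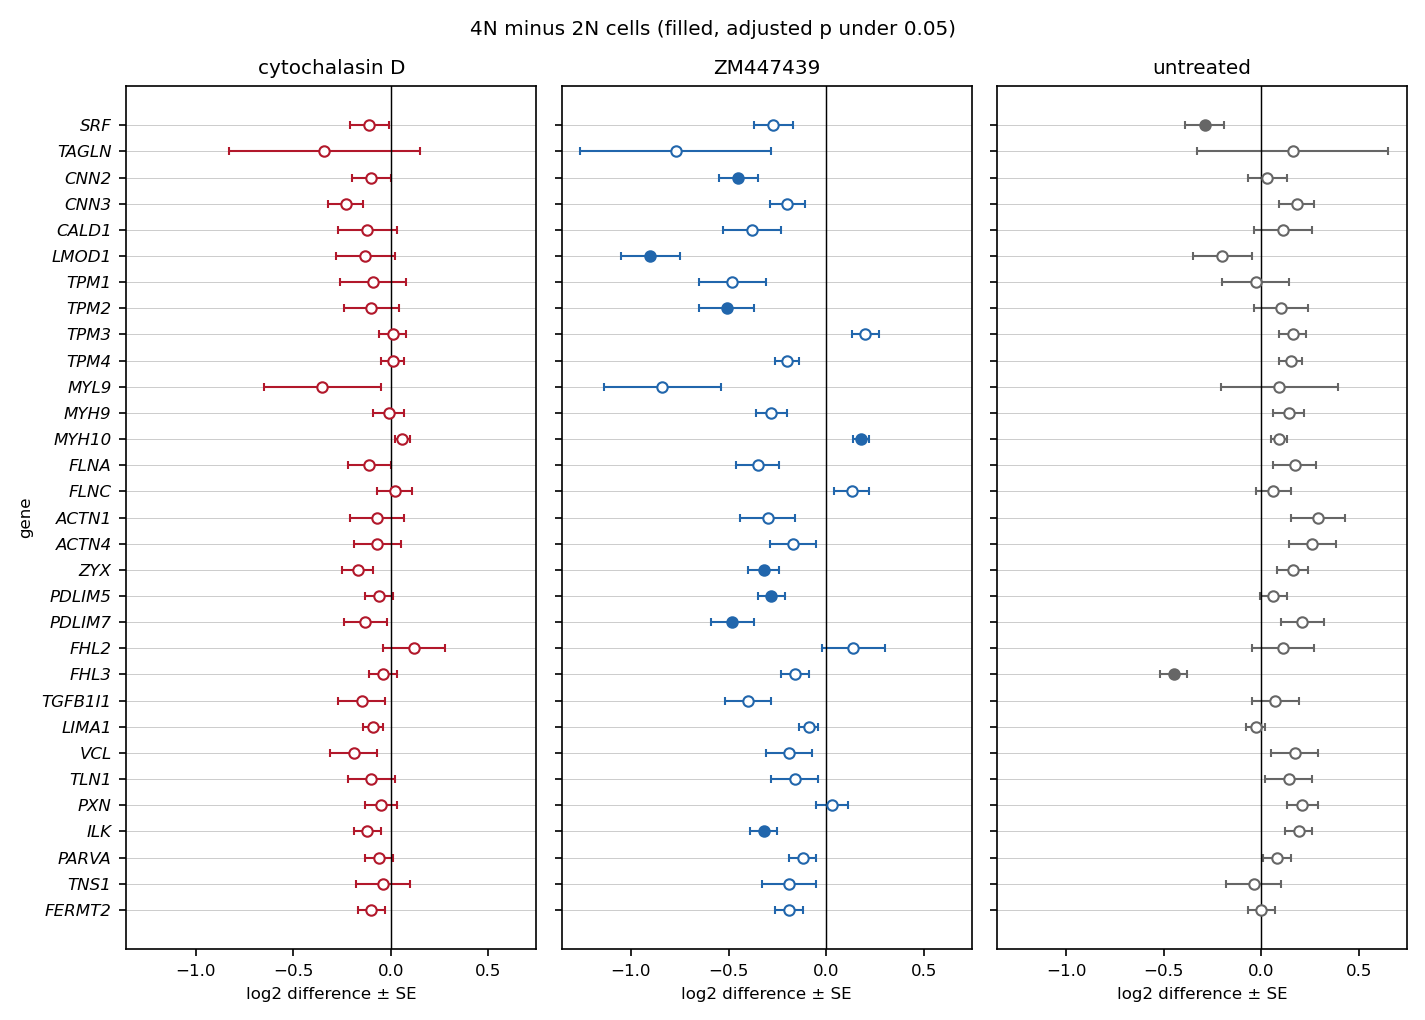
The log2 difference between 4N and 2N cells (x axis, ± SE from limma, n = 3 libraries a group) is drawn for the 31 tested members with cytochalasin D, with ZM447439 and untreated; filled points have adjusted p below 0.05 over all genes. With ZM447439 5 of 31 members lie above zero and with untreated cells 25 do, with medians of -0.27 and 0.11. Among all 13037 genes tested, not drawn, 6759 and 7925 were above zero, with medians of 0.01 and 0.04.

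Whether the difference between sorts differed between treatments was tested as an interaction. For ZM447439 against untreated cells, 0 members had a higher and 6 a lower difference, against 3.52% and 6.58% of all genes. The 6 were PDLIM7 (-0.69 ± 0.16, adjusted p = 0.0135), ILK (-0.51 ± 0.09, 0.00403), ZYX (-0.47 ± 0.11, 0.0178), MYH9 (-0.43 ± 0.12, 0.0337), TPM4 (-0.34 ± 0.09, 0.0221) and PDLIM5 (-0.33 ± 0.10, 0.0456). In ILK, for example, the 4N cells were lower by -0.32 with ZM447439, while the untreated difference was 0.19. With the block 0 were higher and 23 lower, TAGLN (-0.92), MYL9 (-0.93) and LMOD1 (-0.70) among them, and without the 6 libraries 1 and 23. The blocked fit called 19.2% of all genes and the fit without the 6 libraries 37.4%. PDLIM7 and ILK passed in all 18 fits leaving out 1 library. ZYX was lost without ZM447439 4N number 2 (adjusted p = 0.052). TPM4 was lost without ZM447439 4N number 2 or 3, untreated 4N number 1 or 2 or untreated 2N number 3, and MYH9 without these or ZM447439 2N number 2 or untreated 2N number 2 (adjusted p 0.0525 to 0.0867). PDLIM5 held only without cytochalasin D 4N, cytochalasin D 2N or ZM447439 4N number 1. Rescaling to the median ratio left 0 and 4, and quantile normalization 1 and 5.

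For cytochalasin D against untreated cells 1 member had a higher and 0 a lower difference, against 1.8% and 6.04% of all genes. It was FHL3 (0.41 ± 0.10, adjusted p = 0.0228), whose sorts differed by -0.04 with cytochalasin D and -0.45 untreated. The call was lost without number 3 of cytochalasin D 4N, untreated 4N or untreated 2N, or number 2 of cytochalasin D 2N (adjusted p 0.0512 to 0.0636). With the block 7 were also lower: CNN3 (-0.40), VCL (-0.36), ACTN1 (-0.36), ACTN4 (-0.33), ZYX (-0.33), PXN (-0.25) and CALD1 (-0.23). Without the 6 libraries 1 was higher and 15 were lower. Of all genes 14.8% were called with the block and 21.2% without the 6 libraries.

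Cytochalasin D and ZM447439 were set against each other within each sort. In 4N cells 8 members were higher and 4 lower with cytochalasin D, against 15.7% and 27.8% of all genes. LMOD1 (0.93 ± 0.15, adjusted p = 0.000266), FLNA (0.43 ± 0.11, 0.00649), PDLIM5 (0.36 ± 0.07, 0.000905) and FHL3 (0.26 ± 0.07, 0.00919) were higher in each of the 18 fits leaving out 1 library. FLNA had 225, 208 and 187 RPKM with cytochalasin D against 176, 141 and 145 with ZM447439, without overlap. TPM3 (-0.65 ± 0.07, adjusted p = 1.32e-05) and MYH10 (-0.27 ± 0.04, 0.000114) were lower in each of these fits. CNN2 (0.35, adjusted p = 0.0138), TPM2 (0.40, 0.0333), ILK (0.20, 0.0219) and TPM4 (0.16, 0.0481) were also higher, and FLNC (-0.26, 0.024) and FERMT2 (-0.22, 0.0209) lower. Each of these last 6 was lost in at least 1 such fit.

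The libraries that ended those calls were mostly of the groups compared. CNN2 and TPM2 were lost without cytochalasin D 4N number 1 or ZM447439 4N number 2 or 3, and TPM2 was then at 0.26 in the first case. ILK was lost without cytochalasin D 4N number 1 or 3 or ZM447439 4N number 2 or 3. FLNC was lost without cytochalasin D 4N number 1 or 3 or ZM447439 4N number 1, and FERMT2 without cytochalasin D 4N number 2 or 3 or ZM447439 4N number 1. TPM4 held in 6 of the 18 fits, those without cytochalasin D 4N number 2, ZM447439 4N number 1, untreated 4N or 2N number 3, or number 1 of either drug in the 2N sort. FLNC was lost under both rescalings (adjusted p = 0.108 and 0.146) and FERMT2 under the median ratio (0.0628). With the replicate number as a block 11 were higher and 9 lower, and without the 6 libraries 14 and 11, where 49.3% and 57.3% of all genes were called.

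In 2N cells 0 members were higher and 6 lower with cytochalasin D, against 13.7% and 23.2% of all genes. TPM1 had 41.5, 35.3 and 33.7 RPKM with cytochalasin D against 75.7, 57.2 and 58.7 with ZM447439, with no overlap (-0.78 ± 0.17, adjusted p = 0.0028). ACTN1 had 5.93, 5.31 and 5.33 against 10.0, 7.30 and 7.60 (-0.54 ± 0.14, adjusted p = 0.0094). TPM3 (-0.47 ± 0.07, adjusted p = 0.000309), FERMT2 (-0.31 ± 0.07, 0.0039) and MYH10 (-0.16 ± 0.04, 0.00744) were lower as well. PARVA (-0.23 ± 0.07, adjusted p = 0.025) was the sixth, and it was lost without cytochalasin D 2N number 2 or 3 or ZM447439 2N number 1 (adjusted p 0.0688 to 0.103) and after median ratio scaling (0.0552). With the block 1 was higher (VCL, 0.17, adjusted p = 0.0438) and 11 were lower, TAGLN (-0.85, 0.00741) and CALD1 (-0.37, 0.00127) among the additional ones. With those 6 libraries left out the counts were 3 and 13. Of all genes 42.4% were called with the block and 50.5% without the 6 libraries. The dose and time of cytochalasin D are not known here, so the drugs cannot be called matched.

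The cofactor genes MRTFA and MRTFB lay below 0.5 RPKM over their long spans (0.179 to 0.241 and 0.114 to 0.15 in group means) and were not tested.

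Of the actins, 4 of 6 were tested. ACTB, beta-actin, had a mean of 129 ± 5.29 RPKM in cytochalasin D 4N against 199 ± 12.2 in untreated 4N cells (SD, n = 3 each) and fell in all 4 comparisons by -0.62, -0.44, -0.76 and -0.45. ACTG1, gamma-actin, rose in cytochalasin D 2N (0.27, adjusted p = 0.00175) and fell in ZM447439 4N cells (-0.51, adjusted p = 1.31e-05). A list of 13 tested genes held the ternary complex factors ELK1, ELK3 and ELK4 and genes that SRF serves with such factors instead. Of the 13, 1 was higher and 1 lower in cytochalasin D 4N, 2 and 1 in cytochalasin D 2N, 0 and 2 in ZM447439 4N and 0 and 2 in ZM447439 2N cells. Shares of all genes higher and lower were 26.1% and 44.4%, 27.1% and 39.5%, 19.6% and 35.5%, and 23.6% and 32.5%. JUNB, an AP-1 subunit, was at 1.05 and 1.06 with cytochalasin D (adjusted p = 0.00375 and 0.00377).

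Of 22 other tested genes of adhesion complexes, 6 and 8, 6 and 7, 4 and 7, and 7 and 3 were higher and lower in cytochalasin D 4N, cytochalasin D 2N, ZM447439 4N and ZM447439 2N cells. CSRP1, a LIM protein known as an SRF target of smooth muscle, was at -1.05, -0.76 and -0.65 in the first 3 (adjusted p = 2.84e-05, 0.000578 and 0.00291), and ITGA5, the fibronectin receptor subunit, at -0.70 with cytochalasin D and -0.69 with ZM447439 in the 4N sort (adjusted p = 0.000844 and 0.00146). KANK2, which binds talin, was at 0.87 and 0.64 with cytochalasin D (4N and 2N) and at 0.29 in ZM447439 4N cells, where it passed, and at 0.10 in ZM447439 2N cells, where it did not. The YAP-TEAD targets, which share inputs with MRTF, were 1 higher and 7 lower of 11 in cytochalasin D 4N, 1 and 6 in cytochalasin D 2N, and 0 and 2 in each ZM447439 sort. For both lists, shares of all genes higher and lower were 26.1% and 44.4%, 27.1% and 39.5%, 19.6% and 35.5%, and 23.6% and 32.5%. ANKRD1 was at -1.92 and -2.14 with cytochalasin D (adjusted p = 0.000289 and 0.000123), where F3, tissue factor, was at -1.68 in both sorts (7.85e-05 and 9.03e-05). With ZM447439 neither passed: ANKRD1 was at 0.80 and 0.40, and F3 at -0.03 and -0.22.

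Genes of the cell cycle and a muscle marker also moved with the groups. All 16 genes of G2 and mitosis were lower with either drug in both sorts, with medians of -3.25 and -2.16 (cytochalasin D 4N and 2N) and -2.39 and -1.86 (ZM447439 4N and 2N). SMTN, the tested muscle marker, was at -2.20, -1.28, -1.41 and -0.63 in the order cytochalasin D 4N, cytochalasin D 2N, ZM447439 4N and ZM447439 2N. The part of either in the members' values was not tested.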

How the data were processed

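Poly-A RNA was sequenced from 18 libraries with a kit that does not keep strand, per the labels' protocols. The authors deposited 1 table of RPKM values per gene. CASAVA 1.8.2, TopHat2, edgeR and the build hg19 are named in the submitters' processing notes; the sources used here name no counter. Deposited RPKM values were checked for the length behind them: with the gene's genomic span, 89.1% to 89.6% of values below 200 reads were whole within 0.05 reads in each library, and with exon length 11.5% to 12.5%. The implied library sizes were 51135642 to 78294394 reads.

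From these values log2(RPKM + 0.5) was computed for the 13037 genes averaging 0.5 RPKM or more. It was fitted with limma 3.58.1 (R 4.3.3) on 6 group means over all 18 libraries, with a trended variance (12 residual degrees of freedom) and Benjamini-Hochberg adjustment at 0.05; the fit was tested on simulated data. RPKM are not counts, so no count model was the main test. All tested members are described, each that passed with its values; outside the members, at most 4 genes per list are named. The members and lists were chosen with earlier results of these data known. Replicate numbers come from the labels. Deviations from group means of same-numbered libraries correlated between 4N and 2N cells of a treatment (0.632, 0.325 and 0.405 with cytochalasin D, 0.441, 0.276 and 0.261 with ZM447439, 0.194, 0.192 and 0.45 untreated). They also did between cytochalasin D and ZM447439 in 4N cells (0.523, 0.248 and 0.309) and 2N cells (0.485, 0.231 and 0.307). Every same-number correlation named here was over 0.1, so these libraries were taken as paired, but only in the replicate block, an alternative. The main fit held no block and so ignored this pairing. For cytochalasin D against ZM447439 the block was the number over all 18 libraries, untreated ones included. Some libraries of different numbers correlated as strongly across sorts (numbers 2 and 3 at 0.385 with cytochalasin D, 3 and 2 at 0.323 with ZM447439, 2 and 1 at 0.258 untreated), so not every library correlated best with its own number. Drug-treated and untreated libraries were not taken as paired (number 2 correlated at -0.0713 and -0.148 in 4N cells). Alternatives were other pseudocounts, no filter, a common median ratio, quantile normalization, CPM, no variance trend, the compared libraries alone, the replicate block and leaving out libraries. A further list of related genes is not reported here.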

Additional observations from a re-analysis of the deposited data

Results flagged for a closer look

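The difference between 4N and 2N cells changed with treatment, by the interaction term of limma, in 7 members, 1 of 31 for cytochalasin D (3.23%, beside 7.85% of all genes) and 6 of 31 for ZM447439 (19.4%, beside 10.1% of all genes). With cytochalasin D against untreated cells FHL3 had an interaction of 0.41 ± 0.10 (adjusted p = 0.0228). With ZM447439 against untreated cells PDLIM7 had -0.69 ± 0.16 (adjusted p = 0.0135), ILK -0.51 ± 0.09 (0.00403), ZYX -0.47 ± 0.11 (0.0178), MYH9 -0.43 ± 0.12 (0.0337), TPM4 -0.34 ± 0.09 (0.0221) and PDLIM5 -0.33 ± 0.10 (0.0456). Each of these calls other than PDLIM7 and ILK was lost in at least 1 fit that left out 1 library. With the replicate block 8 and 23 members passed. The genes of G2 and mitosis moved with the same groups, and their part in these values was not tested.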

How the results depend on the processing

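Counts below are members that passed in either direction. Where no share of all genes is given for the same fit, a change in a count may be a general change in calls. Leaving out the 6 libraries narrows the spread within groups by construction. Without the 6 libraries that stood apart (chosen after seeing the data) the counts were 15 for untreated 4N against 2N, 7 for cytochalasin D 4N against 2N, 28 for ZM447439 4N against 2N, 28 and 22 for cytochalasin D against untreated in 4N and 2N cells, 28 and 23 for ZM447439 against untreated, 25 and 16 for cytochalasin D against ZM447439, and 16 and 24 for the cytochalasin D and ZM447439 interactions. The replicate block, where numbers were taken to pair the libraries, gave 7 (untreated sorts), 22 (ZM447439 sorts), 20 and 12 (cytochalasin D against ZM447439 in 4N and 2N cells), 8 and 23 (interactions), and kept every call. Between drug-treated and untreated cells, where the libraries share only a number, it gave 21, 20, 21 and 19. Without a filter the untreated sorts gave 1 and the ZM447439 sorts 4. With the compared libraries alone the untreated sorts gave 4, the ZM447439 sorts 0, cytochalasin D against ZM447439 in 4N cells 7 and the cytochalasin D interaction 3. Without both ZM447439 libraries of number 1 (chosen after seeing the data, as are the next ones) the untreated sorts gave 6, the ZM447439 sorts 20 and the interactions 5 and 17. Without both untreated libraries of number 3 the untreated sorts gave 1 and the cytochalasin D interaction 0, and without both cytochalasin D libraries of number 1 the ZM447439 interaction gave 10. Leaving out 1 library at a time gave 1 to 4 (untreated sorts), 0 to 0 (cytochalasin D sorts), 1 to 19 (ZM447439 sorts), 15 to 19 and 12 to 17 (cytochalasin D against untreated in 4N and 2N cells), 14 to 23 and 10 to 18 (ZM447439 against untreated), 8 to 14 and 5 to 9 (cytochalasin D against ZM447439), and 0 to 4 and 2 to 16 (interactions). Signs turned under quantile normalization for CNN3 (0.03) and ILK (0.07) in cytochalasin D 4N cells. They turned without the 6 libraries for MYL9 (-0.27), TPM2 (-0.10) and FHL2 (-0.16) in cytochalasin D 4N, FHL2 (-0.15) in cytochalasin D 2N, TPM1 (-0.16) in ZM447439 4N and TAGLN (-0.35) in ZM447439 2N cells. The cause was not tested. Of the values of single members under alternatives, 9857 kept their side of the threshold (167 of them not called and of opposite sign), 428 came to pass, 278 no longer passed and 8 reversed. With 3 libraries a group, the spread between libraries limits these values for the tested members. How that spread compares with counting noise was not tested. CNN1 and FHL1, with 16 to 90 and 90 to 443 reads, lay below the filter and were not tested.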
